A study of Mus musculus with 2 samples.

Results

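H1t ChIP-seq peaks that lie at the telomere side of the mouse autosomes were examined in spermatogenic cells. A peak was included when its midpoint lay on chromosomes 1 to 19 of mm10 within the 5 Mb before the end of the last annotated gene or of the last peak, whichever ended later. By this rule 3624 of the 76546 peaks of the list were telomere-side peaks, 4.73% of all, and 72438 peaks lay on chromosomes 1 to 19. The other chromosome stretches were an interior with 65398 peaks and a centromere-side 5 Mb with 3416 peaks. The spermatogenic cells came from testes of ICR mice aged 6 weeks, and the series has 2 libraries, an H1t ChIP made with an in-house rabbit polyclonal antibody on enzymatically fragmented chromatin, and an input. Only the peak list of the H1t library was used, and the input library was not analysed here. The cells are a mixture of germ cells at different steps of spermatogenesis, and the number of animals is not given in the sources used here. With 1 library, no value below carries a replicate error and no test between conditions can be made, so all differences between chromosome stretches are descriptions of this peak list. Neither read depth nor the peak caller's threshold is given in the sources used here. The score of a peak is the authors' own value, which runs from 50 to 3100 in this list.

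H1t is a linker histone made in the testis, where it replaces part of the somatic linker histones on the DNA between nucleosomes during meiotic prophase. Mouse autosomes have their centromere close to one end, so that a chromosome arm runs from the centromere side, where coordinates begin, to the far telomere, where they end. Telomeres attach to the nuclear envelope in meiotic prophase, and the sequence next to them is known in mammals for multicopy gene families and duplicated blocks.

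The 5 promoters shown here are examples, picked after their values were seen, of telomere-side genes with a start-site peak and without one. Promoter sequences are those of RefSeq on GRCm38.p6, the assembly behind mm10, and run from 250 bases before to 50 bases after the gene's start on its own strand. Capitals mark every CG dinucleotide, which reads the same on both strands. Among all 31396 RefSeq promoters of chromosomes 1 to 19, 94.8% held at least 1 CG, the median was 7 and 0.879% held 50 or more. The promoter of Actg1, which encodes cytoplasmic gamma-actin, lies at chr11:120348446-120348745 on the minus strand, holds 50 CG and was covered in full by a peak scoring 298.5. The promoter of Ctdsp2, which encodes a phosphatase of the RNA polymerase II tail, lies at chr10:126978467-126978766 on the plus strand, holds 25 CG and was also covered in full, by a peak scoring 225.22.
Actg1: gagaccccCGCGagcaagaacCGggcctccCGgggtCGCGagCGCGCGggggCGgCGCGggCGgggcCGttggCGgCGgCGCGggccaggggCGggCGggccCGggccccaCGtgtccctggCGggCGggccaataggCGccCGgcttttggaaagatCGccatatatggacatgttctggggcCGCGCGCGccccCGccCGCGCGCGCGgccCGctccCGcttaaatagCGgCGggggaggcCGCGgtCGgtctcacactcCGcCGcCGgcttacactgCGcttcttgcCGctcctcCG
Ctdsp2: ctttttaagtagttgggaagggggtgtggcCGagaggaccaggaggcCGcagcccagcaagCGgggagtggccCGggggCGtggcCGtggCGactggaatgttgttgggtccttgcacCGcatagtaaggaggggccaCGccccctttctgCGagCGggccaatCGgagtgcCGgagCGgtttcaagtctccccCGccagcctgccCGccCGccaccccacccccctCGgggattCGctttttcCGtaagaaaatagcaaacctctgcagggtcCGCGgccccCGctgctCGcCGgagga
Krtap5-2, a keratin-associated protein gene of hair, has a promoter at chr7:142175956-142176255 on the minus strand with 0 CG, and a peak scoring 194.39 covered 182 of its 300 bases.
Krtap5-2: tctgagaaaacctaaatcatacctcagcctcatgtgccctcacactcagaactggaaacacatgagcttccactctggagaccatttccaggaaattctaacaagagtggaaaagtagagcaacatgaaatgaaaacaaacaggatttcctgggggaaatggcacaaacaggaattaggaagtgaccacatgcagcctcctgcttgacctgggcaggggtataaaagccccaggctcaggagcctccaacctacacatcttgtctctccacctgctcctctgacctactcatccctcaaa
No peak covered the promoter of Brwd1, which encodes a bromodomain protein that reads histone acetylation, at chr16:96082379-96082678 on the minus strand. That promoter holds 52 CG. No peak covered the promoter of the olfactory receptor gene Olfr773 at chr10:129187370-129187669 on the minus strand either, and it holds 0 CG.
Brwd1: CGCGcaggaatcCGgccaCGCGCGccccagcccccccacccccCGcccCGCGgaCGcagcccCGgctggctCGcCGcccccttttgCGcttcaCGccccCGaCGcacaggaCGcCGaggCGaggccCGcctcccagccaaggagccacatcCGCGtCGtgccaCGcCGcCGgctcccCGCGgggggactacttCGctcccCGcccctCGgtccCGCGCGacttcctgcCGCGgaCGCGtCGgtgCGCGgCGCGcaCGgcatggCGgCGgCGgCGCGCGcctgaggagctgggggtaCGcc
Olfr773: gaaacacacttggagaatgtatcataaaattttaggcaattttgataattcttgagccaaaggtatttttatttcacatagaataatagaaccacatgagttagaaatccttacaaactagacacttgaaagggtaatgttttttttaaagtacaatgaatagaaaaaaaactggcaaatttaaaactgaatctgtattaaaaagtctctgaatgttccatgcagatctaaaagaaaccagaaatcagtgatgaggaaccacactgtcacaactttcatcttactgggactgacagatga
Because these 5 were picked after their values were seen, they do not show how often promoters with many or few CG had a peak. Among telomere-side coding genes matched to a RefSeq promoter, a peak overlapped 13 of 212 promoters with 0 to 4 CG (6.13%). With 30 or more CG it was 81 of 189 (42.9%).

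Of the 58 RefSeq miRNA hairpins in the telomere-side stretches, 5 were overlapped by a peak (8.62%), against 76 of 827 in the interior (9.19%). In the larger GENCODE annotation the order was the other way, with 14 of 108 miRNA genes overlapped at the telomere side (12.96%) and 134 of 1858 in the interior (7.21%). The overlapped hairpins were Mir7005, Mir7658, Mir483, Mir138-1 and Mir6916. Mir483 lies within Igf2 at chr7:142654924-142654996 on the minus strand, under a peak of 544 bp that scored 66.29. Mir138-1 lies at chr9:122682876-122682974 on the plus strand, within no annotated coding gene, under a peak of 481 bp that scored 60.01. Both mature forms of Mir483 and both of Mir138-1 are shown as examples, with the seed, bases 2 to 8, in capitals. No seed is shared among the 4.
mmu-miR-483-3p: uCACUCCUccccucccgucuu
mmu-miR-483-5p: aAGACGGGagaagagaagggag
mmu-miR-138-5p: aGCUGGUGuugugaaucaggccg
mmu-miR-138-1-3p: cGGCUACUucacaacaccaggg

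Peaks were denser at the telomere side than in the interior. The 95 Mb of telomere-side sequence held 38.1 peaks per Mb and the 2213 Mb of interior held 29.6 per Mb, a ratio of 1.29. The centromere-side 5 Mb held 36.0 peaks per Mb, 1.22 times the interior. Peaks covered 3.12% of telomere-side bases, 2.96% of centromere-side bases and 2.40% of interior bases. Counting only peaks at or above the median score of the list, 74.04, the telomere side held 18.4 per Mb and the interior 14.7 per Mb. A neighbouring peak within 10 kb was present for 68.5% of telomere-side peaks, 69.3% of centromere-side peaks and 65.6% of interior peaks.

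The higher density was not shared evenly by the chromosomes. The telomere-side density exceeded that of the same chromosome's interior on 14 of 19 chromosomes and was below it on 5, and the median ratio was 1.12. On 9 chromosomes the ratio was 1.4 or more, and these 9 ends held 2297 of the 3624 telomere-side peaks. Chromosome 11 had 67.4 peaks per Mb at its telomere side, 2.59 times its interior, chromosome 14 had 51.6 per Mb, 2.02 times its interior, and chromosome 18 had 53.8 per Mb, 1.90 times its interior. The other 6 of these ends were those of chromosomes 7, 4, 3, 10, 2 and 15, with ratios of 1.60, 1.56, 1.53, 1.52, 1.47 and 1.41.

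At the other extreme stood chromosomes 6, 16, 5 and 19, whose telomere-side densities of 20.4, 21.6, 23.4 and 20 per Mb were 0.639, 0.687, 0.769 and 0.783 times those of their interiors. The ratios of chromosomes 8, 13, 17, 1, 9 and 12 lay between 0.973 and 1.12. Taken as whole chromosomes, interiors differed far less from each other, between 25.5 and 33.0 per Mb, but an interior averages over many stretches of 5 Mb. Against single stretches of 5 Mb the ends stood inside the range of the interior. The 19 end stretches ran between 20 and 67.4 per Mb with a median of 33.8, and the 434 interior stretches between 11.0 and 74.4 with a median of 29. Of the 19 ends, 9 were above the upper quartile of the interior stretches, 34.1 per Mb, and 3 were below their lower quartile, 23.4 per Mb. The end was the densest 5 Mb stretch of its own chromosome on chromosomes 4, 11, 14 and 18. It ranked 2nd on chromosomes 2, 3, 7, 10 and 15. On 12 chromosomes the telomere side was denser than the centromere side, and on 7 it was sparser.

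**Figure D1:**
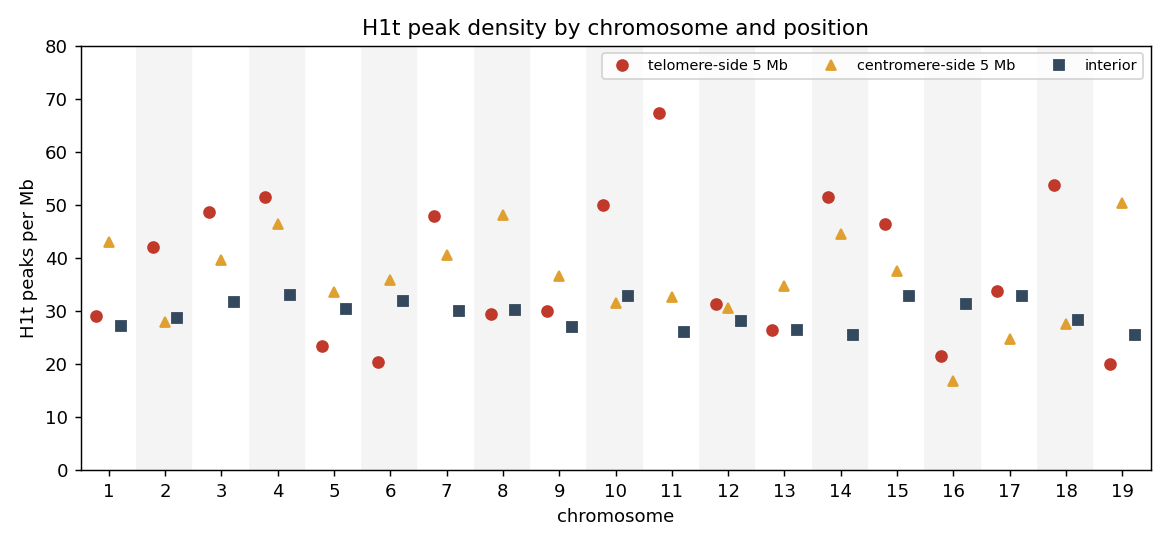
H1t peaks per Mb (vertical axis) on each autosome (horizontal axis) in the telomere-side 5 Mb (red circles), the centromere-side 5 Mb (orange triangles) and the interior (dark squares), 1 value each from 1 library. Telomere-side values spread from 20 to 67.4 per Mb and interior values from 25.5 to 33.0.

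The density was highest in the last 1 Mb. It was 46.2 peaks per Mb in the last 1 Mb and 40.3 in the next, then 33.5, 33.7 and 37.1 in the steps out to 5 Mb. Just outside the 5 Mb limit, from 5 to 6 Mb, it was 35.5, close to the 37.1 just inside it, and from 9 to 10 Mb it was 28.3. The last 1 Mb was denser than the same chromosome's interior on 16 of 19 chromosomes and more than 1.5 times as dense on 8. It held 94 peaks on chromosome 18, 84 on chromosome 3, 69 on chromosome 14 and 61 on chromosome 17, against 20 on chromosome 11, 23 on chromosome 16 and 24 on chromosome 6. Among the 1 Mb steps of the 19 telomere-side stretches, the densest was the one 1 to 2 Mb from the end of chromosome 11, with 106 peaks and 46 coding gene starts, and the densest interior bin of 1 Mb held 138 peaks.

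The 877 peaks of the last 1 Mb were also wider and more often intergenic than those 1 to 5 Mb from the end. Their median width was 740 bp and their median score 78.17, against 675 bp and 71.1 for the peaks 1 to 5 Mb from the end. Intergenic midpoints made up 55.9% of the last 1 Mb and 38.7% of the 4 Mb before it, and coding-sequence midpoints 5.02% and 10.4%. In the interior the intergenic share was 55.2% and the coding-sequence share 5.39%, close to those of the last 1 Mb. The median width of the last 1 Mb was above that of the same chromosome's interior on 14 chromosomes, and the median score on 13.

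**Figure D2:**
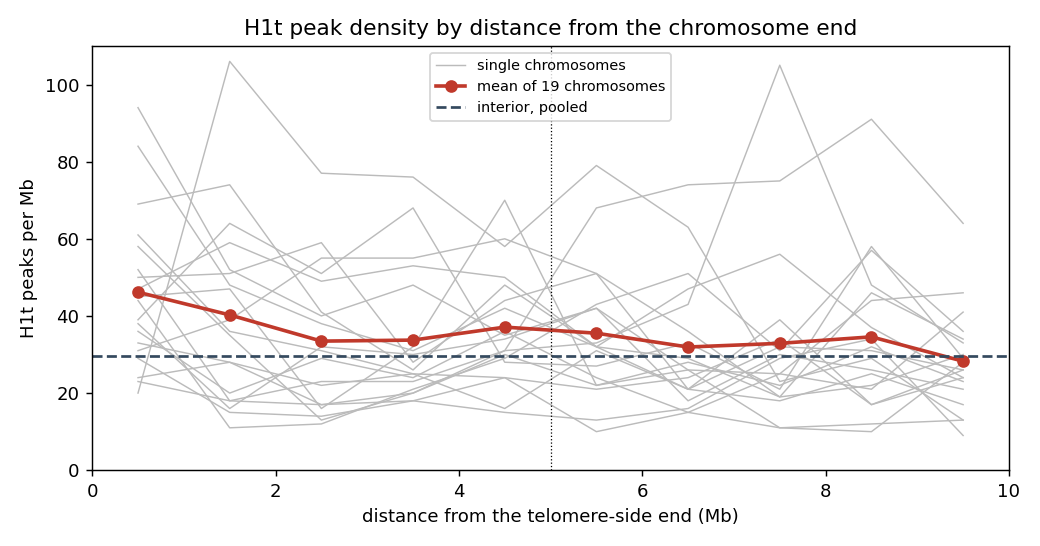
H1t peaks per Mb (vertical axis) in 1 Mb steps from the chromosome end inwards to 10 Mb (horizontal axis), with each chromosome in grey, the mean of the 19 chromosomes in red, the pooled interior as a dashed line and the 5 Mb limit as a dotted line. The mean is 46.2 in the last 1 Mb and 28.3 from 9 to 10 Mb, and the single chromosomes of the last 1 Mb lie between 20 and 94.

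Gene density varied more between the ends than peak density, from 0.8 to 33.2 coding starts per Mb, where peak density ran from 20 to 67.4 per Mb. The telomere side held 1138 coding gene starts, 11.98 per Mb, and the interior 18765, 8.48 per Mb. The telomere side was the more gene-rich on 10 chromosomes and the less gene-rich on 9. With a divider of 12 coding starts per Mb, set after the values were seen, 7 ends were gene-rich (chromosomes 2, 4, 7, 9, 10, 11 and 15, with 14.2 to 33.2 coding starts per Mb) and 12 were gene-poor (0.8 to 8.8 per Mb). The gene-rich ends held 47.9 peaks per Mb and the interiors of the same chromosomes 30.02, a ratio of 1.60, and all 7 were above their own interior. The gene-poor ends held 32.5 peaks per Mb and their interiors 29.2, a ratio of 1.11, and 7 of the 12 were above their own interior. Across the 19 ends, coding-gene density and peak density had a Pearson r of 0.44 and a Spearman rho of 0.12, and across the 434 interior stretches 0.19 and -0.03. These points share 1 library and its depth, and no p is given.

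Gene number alone did not order the ends. Among the gene-poor ends, those of chromosomes 18, 14 and 3 had 1.8, 4.8 and 2.8 coding starts per Mb and yet 53.8, 51.6 and 48.6 peaks per Mb. Among bins of 1 Mb with similar numbers of coding starts, those of the telomere side averaged 51.0 peaks with 21 or more starts, against 38.1 in the interior. With 11 to 20 starts they averaged 41.1, against 29.1 in the interior, and with 1 to 5 starts 38.3, against 27.9. With 6 to 10 starts the order was the other way, 23.3 at the telomere side and 26.7 in the interior, and only 3 telomere-side bins had no coding start, with 26.7 peaks on average, against 32.7 in the interior. When interior bins were weighted to the telomere-side mix of gene densities, the interior averaged 29.9 peaks per Mb and the ratio was 1.27.

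**Figure D3:**
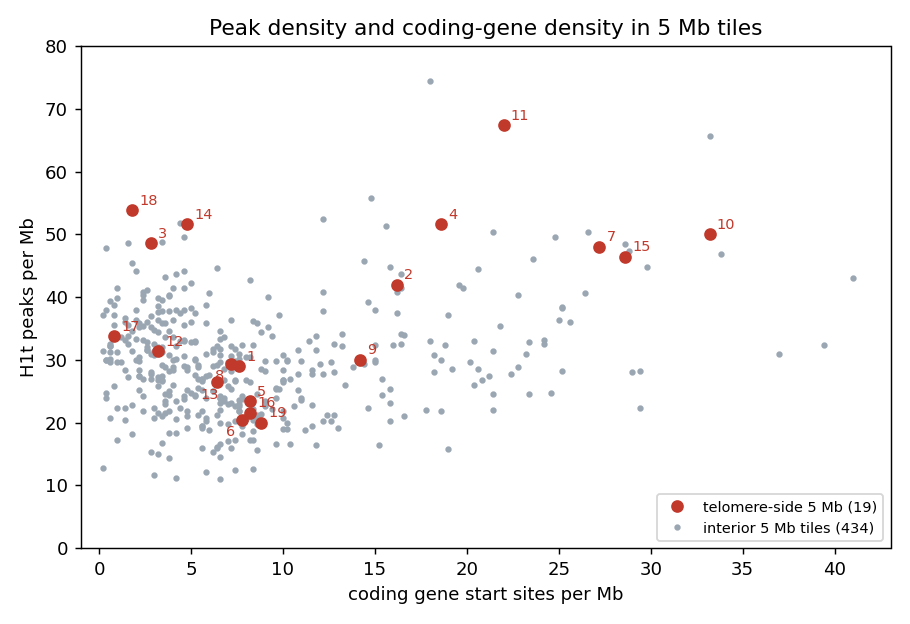
H1t peaks per Mb (vertical axis) against coding gene start sites per Mb (horizontal axis) in stretches of 5 Mb, with the 19 telomere-side stretches in red, labelled by chromosome, and the 434 interior stretches in grey. Chromosomes 18, 3 and 14 combine under 5 coding starts per Mb with over 48 peaks per Mb, and chromosomes 5, 6, 16 and 19 lie at the low edge of the telomere-side values.

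Telomere-side peaks lay more often in promoters and coding sequence, and less often in intergenic sequence, than interior peaks. Of all telomere-side midpoints, 11.0% lay in promoters (1000 bp before to 100 bp after a transcript start), 9.08% in coding sequence, 32.8% in introns and 42.9% in intergenic sequence. The interior had 7.27% in promoters, 5.39% in coding sequence, 29.6% in introns and 55.2% in intergenic sequence. In the last 1 Mb alone the shares of coding and intergenic sequence, 5.02% and 55.9%, were close to those of the interior. Per Mb of each class, the telomere side held 207 midpoints in coding sequence and the interior 131, a ratio of 1.58. The same comparison gave 85.2 and 58.6 per Mb for promoters (1.45), 235 and 197 for 5′ UTRs (1.196), 37.9 and 19.9 for 3′ UTRs (1.91), 31.5 and 18.9 for other exons (1.67), 28.7 and 20.98 for introns (1.37) and 35.6 and 32.3 for intergenic sequence (1.1). Every class was thus denser at the telomere side, with the smallest excess in intergenic sequence, where 9 of 19 chromosomes were higher at the telomere side. Introns were higher on 13 chromosomes, coding sequence on 12 and promoters on 14.

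The share of midpoints in coding sequence was 15.6% at the 7 gene-rich ends, against 6.82% in their interiors, and 3.49% at the 12 gene-poor ends, against 4.43% in theirs. Chromosome 11 had 55 telomere-side midpoints in coding sequence, 341 per Mb of it, against 168 per Mb in its interior. Chromosome 3 had 0 of 243 and chromosome 18 had 1 of 269. The dense gene-poor ends differed among themselves. On chromosome 18, 204 of 269 midpoints were intergenic, 55.2 per Mb of intergenic sequence against 30.4 in the interior, and on chromosome 3, 165 of 243 were, 59.5 per Mb against 35.9. On chromosome 14 most midpoints, 172 of 258, were in introns, 50.2 per Mb of intron against 17.3 in the interior. Chromosome 19 was low in both classes, with 14.1 intergenic midpoints per Mb against 28.0 in its interior and 14.5 per Mb of intron against 18.9. Chromosome 6 was low in intergenic sequence, with 15.9 per Mb against 40.3 in its interior, whereas its introns had 20.6 per Mb against 19.8.

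A peak midpoint within 1 kb of the start site was found for 383 of the 1138 telomere-side coding genes (33.7%) and for 4473 of the 18765 interior coding genes (23.8%), where 24.2% of all coding genes of chromosomes 1 to 19 had one. The centromere side had 19.9%. These are counts of genes, and a peak close to several start sites was counted for each of them, as for Dtl and Ints7. The telomere-side share was above that of the same chromosome's interior on 16 of 19 chromosomes and ran from 16.3% on chromosome 10 to 47.7% on chromosome 19. Chromosome 19, the sparsest end in peaks, thus had the highest share of genes with a start-site peak. The share was 32.4% at the gene-rich ends, against 23.1% in their interiors, and 36.7% at the gene-poor ends, against 24.5% in theirs. Of the telomere-side coding genes, 17.5% had no peak within 10 kb of the gene body, against 30.9% of interior coding genes. The median number of peaks per 100 kb of gene and flanks was 4.12 at the telomere side and 2.47 in the interior.

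The share with a start-site peak rose with the GC content of the first exon in the interior. At the telomere side it rose too, except from the 4th to the highest class. In the 5 classes of first-exon GC from low to high, the share was 7.18%, 12.3%, 31.8%, 54.7% and 51.5% at the telomere side. In the interior it was 4.41%, 10.7%, 24.9%, 36.6% and 43.2%. The telomere side was higher in each class, by the most in the class of 63.3 to 70.1% GC. Weighted to the telomere-side mix of these classes, the interior share was 25.6%, against the 33.7% observed at the telomere side. RefSeq promoters could be matched to 883 of the 1138 telomere-side coding genes, 77.6%, too few for a comparison of promoter CG content between the stretches. Among the matched telomere-side genes alone, promoters overlapped by a peak had a median of 24 CG and those not overlapped 12.

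**Figure D4:**
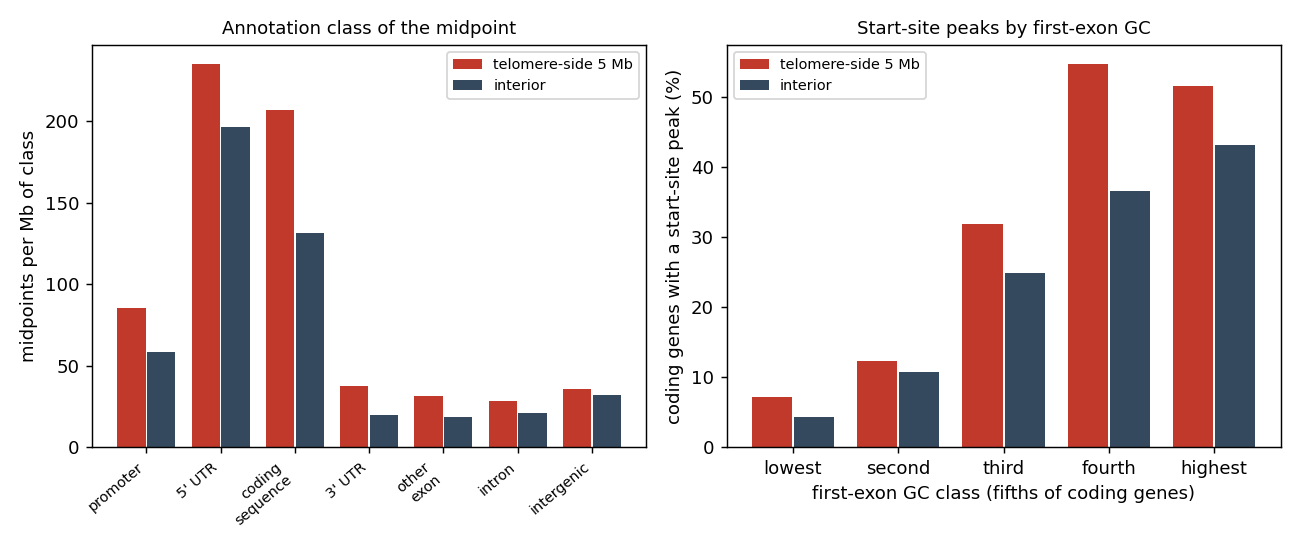
Left, peak midpoints per Mb of each annotation class; right, the share (%) of coding genes with a peak midpoint within 1 kb of the start site by class of first-exon GC, each at the telomere side (red) and in the interior (dark). Every annotation class and every GC class is higher at the telomere side, coding sequence with 207 against 131 per Mb.

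The genes with the highest-scoring start-site peaks were spread over 8 ends. The highest was 3110070M22Rik at the end of chromosome 13 with a score of 359.98, followed by Sim2 (300.08), a basic helix-loop-helix transcription factor of the brain on chromosome 16, and Actg1 (298.5). Ajap1 (252.72), a protein of adherens junctions, lies on chromosome 4, and Ctdsp2 (225.22) on chromosome 10. Chromosome 7 gave Ascl2 (216.78), a transcription factor of the trophoblast, Krtap5-2 (194.39) and Cd81 (180.59), a tetraspanin of the cell surface. Esyt2 (191.97), which tethers the endoplasmic reticulum to the plasma membrane, lies on chromosome 12. Eef1a2 (186.14), a translation elongation factor of brain and muscle, lies on chromosome 2.

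Of the 10 genes most crowded with peaks along their bodies, 4 lay at the end of chromosome 11 and 3 at the end of chromosome 4. Among genes of at least 10 kb, Bahcc1, a chromatin protein gene at chr11:120232947-120292296, had the most peaks per 100 kb of gene and 10 kb flanks, 25.2, from 20 peaks, but no peak midpoint within 1 kb of its start site. On the same end Aatk, a neuronal kinase gene, and Cep131, a centrosomal protein gene, had 25.1 and 21.2 per 100 kb, and Engase, which encodes a glycosidase acting on N-glycans, 24.7. On chromosome 4, Nphp4, a gene of the primary cilium, had 25 peaks or 23.5 per 100 kb, Gpr153, an orphan receptor gene, 22.5, and Espn, which encodes an actin-bundling protein, 21.1. Tns2 on chromosome 15, which links integrins to actin, had 22.2, and Lrp1 on chromosome 10, a large lipoprotein receptor gene, 19.4. Igf2 on chromosome 7, the growth factor gene expressed from the paternal allele, had 19.4, from 7 peaks. Bahcc1 and Lrp1 each had 7 midpoints in coding sequence and Nphp4 had 5. Fasn, which encodes fatty acid synthase, Shank2, a postsynaptic scaffold gene, Helz2, Megf6, Dnah17, an axonemal dynein heavy chain gene, and Trak1 had 4 each.

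Long genes at the telomere side ranged from many peaks to none. On chromosome 14, named after its values were seen, Itgbl1 had 37 peaks in a body of 316 kb, Nalcn, the sodium leak channel gene, 26 in 351 kb, and Pcca, a mitochondrial carboxylase subunit gene, 18 in 357 kb. Fgf14, the coding gene nearest to that end, which encodes an intracellular regulator of sodium channels, had 42 in 699 kb. Dok6 on chromosome 18, also named after its values were seen, had 32 in 477 kb.

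The longest genes with 0 midpoints in the body and 10 kb flanks were Fgf10, a growth factor gene of limb and lung, at 122 kb on chromosome 13, and Brwd1, 90.4 kb, on chromosome 16. They were followed by Wdr95 (83.2 kb), Bcat1 (82.3 kb), an aminotransferase gene, Itgb8 (80.8 kb), an integrin subunit gene, and Cdca7l (74.4 kb). Nnt, a mitochondrial transhydrogenase gene annotated as 2 overlapping entries on chromosome 13, Gnb1 (67.9 kb), a G protein subunit gene, and Lpgat1 (66.4 kb) completed the 10. These lie on chromosomes 1, 4, 5, 6, 12, 13 and 16. First exons of high GC occurred among them, 79.1% in Brwd1 and 82.3% in Gnb1, as did ones of low GC, 41.2% in Fgf10.

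Gene families at the ends differed in their share of start-site peaks, from none to all members. None of the 75 olfactory receptor genes of the telomere side, 60 on chromosome 10 and 15 on chromosome 7, had a start-site peak, against 13 of 1043 in the interior, and none of 5 vomeronasal receptor genes had one, against 0 of 299. A midpoint within 10 kb was present for 42 of the 75 olfactory receptor genes (56%), below the 82.5% of all telomere-side coding genes, and for 464 of 1043 in the interior (44.5%), where all coding genes had 69.1%. Olfr773 had 6. Without these chemoreceptor genes the share of coding genes with a start-site peak was 36.2% at the telomere side and 25.6% in the interior, and 26.5% at the end of chromosome 10. The Zfp genes had 4 of 15 (26.7%), against 75 of 347 in the interior (21.6%), where all coding genes had 33.7% and 23.8%.

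Keratin genes, which encode the intermediate filaments of epithelia, had a start-site peak in 15 of 26 members, all on chromosome 15, against 7 of 27 in the interior. Krt78 was the highest of the 3 most peak-dense ones with 113.73, and Krt4 and Krt86 scored 55.11 and 53.21. All 5 keratin-associated Krtap5 genes of chromosome 7 had one, against 13 of 52 Krtap genes in the interior, with Krtap5-5 at 172.99 and Krtap5-4 at 106.04 below Krtap5-2. Members of these tandem families resemble each other in sequence, and how reads matching several of them were placed is not given in the sources used here. Of the 9 Hoxc genes, homeobox genes that set position along the body, 4 had a start-site peak, namely Hoxc9 (120.73), Hoxc13 (101.25), Hoxc11 (75.97) and Hoxc12 (58.91), against 10 of 30 Hox genes in the interior. Solute carriers had 9 of 21 against 99 of 327, cytochrome P450 genes 1 of 3 against 12 of 95, and collagens 1 of 2 against 15 of 40. At the telomere side, keratin genes (57.7%), Hoxc genes (44.4%) and solute carriers (42.9%) were above the 33.7% of all coding genes. Cytochrome P450 genes (33.3%) were close to it, and the Hoxc, cytochrome P450 and collagen lists hold few genes there. In the interior, keratin genes (25.9%) were close to the 23.8% of all coding genes, as were Krtap genes at 13 of 52. Interior Hox genes (33.3%) and solute carriers (30.3%) were above that share, and cytochrome P450 genes (12.6%) below it. No core histone, protocadherin, beta-defensin or interferon gene of the lists lay at the telomere side.

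The imprinted cluster of distal chromosome 7, in which genes are expressed from 1 parental allele, lies 1.57 to 2.66 Mb from the chromosome end. All 13 of its listed coding genes had a peak within 10 kb, where 82.5% of all telomere-side coding genes had one, against 8 of 9 imprinted genes in the interior. A start-site peak was present in 7 of the 13 (53.8%), against 2 of 9 in the interior (22.2%). All coding genes had 33.7% at the telomere side and 23.8% in the interior. Besides Ascl2 and Cd81 the 7 imprinted genes were Osbpl5 (107.47), Phlda2 (63.44), Igf2 (63.39), Cdkn1c (62.29), a cell-cycle inhibitor gene, and Nap1l4 (57.77). Kcnq1, a potassium channel gene that contains the imprinting control region of the domain, had 17 midpoints within 10 kb and none within 1 kb of its start site. Of the meiotic genes, the synaptonemal complex genes Syce1 and Sycp2 lay at the telomere side, and both had a start-site peak, scoring 73.13 and 72.45. In the interior 6 of 25 meiotic genes had one (24.0%), near the 23.8% of all interior coding genes. None of the 29 autosomal spermatid genes of the list lay there.

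Non-coding genes followed no single direction. A peak overlapped 37.8% of 172 telomere-side antisense genes, against 28.2% in the interior, where coding genes had 61.0% and 49.9%. For lincRNA genes the order was the other way, 20% of 255 against 23.6%. Their median length was 5800 bp at the telomere side and 7572.5 bp in the interior, and the shares were not adjusted for length. Processed pseudogenes were overlapped in 7.34%, against 3.95%. None of the 37 immunoglobulin V genes of chromosome 12 was overlapped, nor any of the 181 in the interior, and these genes have a median length of 443 bp.

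Peak width hardly differed in the middle of its range, while broad peaks made up a somewhat larger share at the telomere side. The median width was 687 bp at the telomere side (quartiles 567 and 892) and 699 bp in the interior (572 and 915), and the telomere-side median was above that of the same chromosome's interior on 7 chromosomes and below it on 12. With a window of 3 Mb the order turned, to 701 bp at the telomere side and 699 bp in the interior. The median score was 72.5 at the telomere side and 73.9 in the interior, and its order turned with a window of 3 Mb too, to 73.95 and 73.8. Peaks of the 7 gene-rich ends had a median width of 658 bp and a median score of 69.05, against 692 bp and 72.9 in the interiors of those chromosomes. Peaks of the 12 gene-poor ends had 713 bp and 76.6, against 705 bp and 74.7. The order of telomere side and interior thus differed between the gene-rich and the gene-poor ends. By class, the median width at the telomere side was 722 bp for intergenic peaks, 680 bp for intronic and 653 bp for coding-sequence peaks, against 729, 685 and 629 bp in the interior. Peaks of at least 2 kb numbered 92 (2.54%) at the telomere side, 69 (2.02%) at the centromere side and 1154 (1.76%) in the interior. Of these, 5, 1 and 18 were wider than 5 kb. Broad telomere-side peaks were intergenic in 58 of 92 cases (63.0%), against 763 of 1154 in the interior (66.1%). The share of broad peaks was above that of the same chromosome's interior on 11 of 19 chromosomes.

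Chromosome 2 held 19 of the 92 broad peaks, 9.05% of its 210 telomere-side peaks, and 18 of these lay 4 to 5 Mb from the end between 177043900 and 177971790. They covered 69.0 kb with a median score of 275, and 17 of the 18 were intergenic, among 13 coding genes of which 2 carry Zfp names, for zinc finger proteins, and 11 predicted-gene names. The widest telomere-side peak, 9639 bp at chr2:177525787-177535425 with a score of 1170, is one of them, as are those at chr2:177357396-177363983 (818) and chr2:177093133-177101223 (637). Of the 5 telomere-side peaks wider than 5 kb, only the one at chr13:119595471-119604565 lay outside this block. How reads matching several places were placed is not given in the sources used here, and its effect on these peaks was not tested. Without chromosome 2 the share of broad peaks at the telomere side was 2.14%, 73 of 3414. Chromosomes 13, 16 and 9 came next by share, and chromosome 5 had 0 broad telomere-side peaks.

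**Figure D5:**
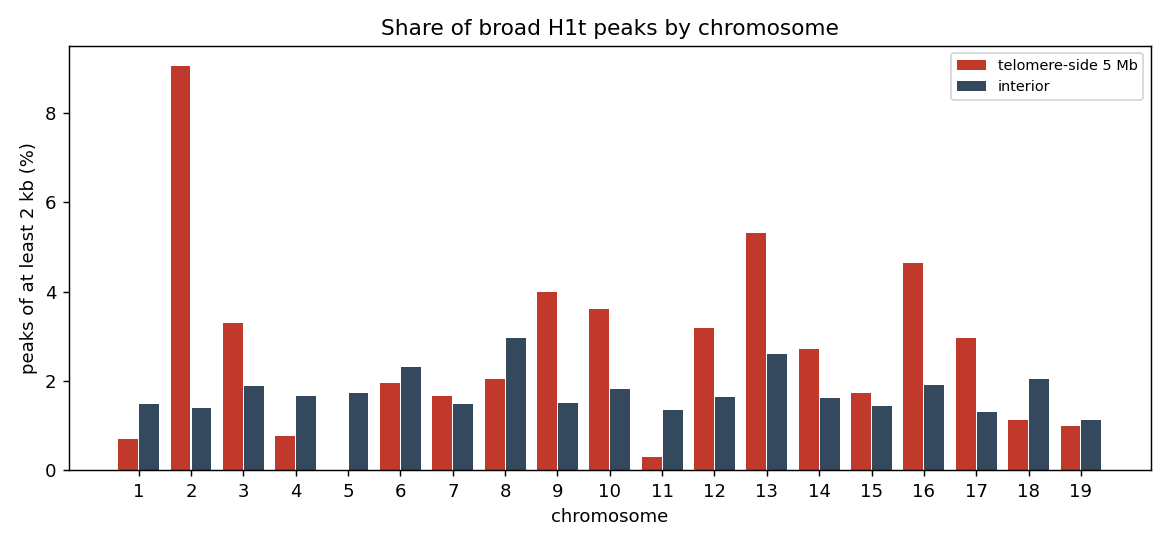
Share (%) of H1t peaks at least 2 kb wide (vertical axis) on each autosome (horizontal axis), at the telomere side (red bars) and in the interior (dark bars). Chromosome 2 stands out at the telomere side with 9.05%, and chromosome 5 has none.

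Scores of 500 or more were reached by 15 telomere-side peaks (0.414%) and 212 interior peaks (0.324%). Both telomere-side peaks at 3100, the highest score of the list, lay close to the chromosome end. One spanned chr13:119595471-119604565, 718 kb from the end, within an intron of Tmem267, and the other chr9:124255928-124258100, 237 kb from the end in intergenic sequence, 33.7 kb from the nearest coding gene, 2010315B03Rik. On chromosome 3 a peak at chr3:158735823-158739685 scored 692, 174 kb from Lrrc7, a postsynaptic scaffold gene, and another at chr3:157440818-157442628 scored 604, with Zranb2 as the nearest coding gene. On chromosome 10 a peak at chr10:130042218-130045554 scored 583, 7.15 kb from Olfr821. The 10 highest also held a peak of chromosome 17 nearest to Mettl4 (582) and a second of chromosome 9 near 2010315B03Rik (582). The rest were the peaks of the chromosome 2 block scoring 1170, 818 and 637. Of the 10 highest, 9 were intergenic. No input value was available beside these scores, and how reads matching several places were placed is not given in the sources used here.

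Few of the coding genes nearest to a chromosome end carried a start-site peak, where 33.7% of all telomere-side and 23.8% of interior coding genes did. Some of these last genes are very short, such as Gm21836 at 63 bp and Gm21060 at 168 bp. Rfc3 on chromosome 5, a subunit of the clamp loader of DNA replication, had one scoring 61.2, and Ptchd3 on chromosome 11, a gene of the patched-domain family, had one scoring 73.0, while the other 17 had none. Peaks reached farther than the genes on 6 chromosomes, 1, 8, 12, 14, 15 and 16, where the last peak set the end. Bicd1 on chromosome 6, a dynein adaptor gene, had 7 peaks and Tmem196 on chromosome 12 had 4, whereas Cr2 on chromosome 1, a complement receptor gene, had 0 within 10 kb.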

How the data were processed

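The H1t ChIP library of spermatogenic cells from ICR mice aged 6 weeks was used. The submitters' processing notes name Bowtie 1.1.2 and the build mm10. The authors deposited a peak list with 1 score per peak. The sources used here do not give its scale, the peak caller, the threshold or the depth, although the deposited peak names begin with MACS. Genes were those of GENCODE M21 and sequences those of RefSeq on GRCm38.p6.

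A midpoint was put in a promoter if it lay in one, otherwise in a 5′ UTR, then in coding sequence, in a 3′ UTR, in another exon or in an intron, and was intergenic if in none. The interior ran from 5 Mb after the first gene or peak to the telomere-side stretch. Scripts used Python 3.11.15, numpy 2.4.6, pandas 2.3.3 and matplotlib 3.10.9, and the density count was checked on simulated data. No comparison has replicates, so there are no p-values.

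Named genes were the 10 with the highest start-site score, the 10 of at least 10 kb with the most peaks per 100 kb, the 10 longest with none, those at the 10 highest peaks, the last coding gene of each chromosome, and up to 3 densest members of each gene list. Others, the sequences shown and the widest peaks were picked after values were seen. Members and lists were chosen with earlier results of these data known. Alternatives changed the window, scores, merging, interior, chromosome end, class rule, start-site window and chromosomes included.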

Additional observations from a re-analysis of the deposited data

Results flagged for a closer look

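Chromosomes X and Y lie outside the autosomal comparison, and peaks were present at their telomere sides too. The last 5 Mb of chromosome X held 84 peaks, 16.8 per Mb, of which 29 lay in the last 1 Mb, with a median score of 86.5 and a highest score of 1265. The last 5 Mb of chromosome Y held 50 peaks, 10 per Mb, of which 34 lay in the last 1 Mb, with a highest score of 1838. The autosomal ends held 20 to 67.4 per Mb, but no adjustment was made for the copy number of X and Y in these cells. The whole of chromosome X held 3513 peaks and the whole of chromosome Y 483, and their ends were not compared with their own interiors.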

How the results depend on the processing

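The density ratio of the telomere side over the interior, 1.29, was above 1 under all 27 alternatives, at 1.204 to 1.34. It was 1.34 with a window of 3 Mb, 1.21 with 10 Mb, 1.25 with peaks at or above the median score and 1.204 with peaks less than 10 kb apart merged. Leaving out each chromosome in turn gave 1.23 (without chromosome 11) to 1.33 (without chromosome 6). The telomere side was denser on 13 to 15 of 19 chromosomes in the 7 alternatives run for that count. The median width was 701 bp with 3 Mb, 669 bp with 10 Mb and 897 bp with the higher-scoring peaks, against 699, 701 and 911 bp in the interior, and 682 to 694 bp with a chromosome left out. The median score was 73.95 with 3 Mb and 70.9 with 10 Mb, against 73.8 and 74.1 in the interior, so that width and score were above the interior with 3 Mb and below it with 10 Mb. The score was 72.1 to 73.5 with a chromosome left out. The coding-sequence share was 8.12% with the higher-scoring peaks, 5.27% when at least 50% of a peak had to lie in coding sequence and 18.2% when 1 bp sufficed, against 4.199%, 3.18% and 10.1%, and 8.34% to 9.78% with a chromosome left out. The start-site share was 30.15% with 3 Mb, 17.9% with the higher-scoring peaks, 39.5% with 2 kb and 27.5% with 500 bp, against 24.1%, 10.7%, 27.6% and 18.9%. It was 32.8% to 36.6% with a chromosome left out. The share of broad peaks was 2.14% to 2.77% with a chromosome left out. No paired analysis was possible because only 1 library has a peak list. Counting error per peak is unknown without depth.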
